A study of Homo sapiens with 4 samples.

Results

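HepG2 cells are a human line derived from a liver cancer that keeps many hepatocyte functions. Their response between 2 h and 6 h of treatment with APRIL (TNFSF13), a soluble TNF-family ligand, was read from 2 of the 4 Affymetrix U133 Plus 2.0 arrays of a time course. Serum had been withdrawn 24 h earlier by the series' design, or overnight by the labels' protocols, and the cells received 200 ng/ml APRIL. The 2 h and the 6 h sample are 1 array each of total RNA, and the remaining arrays are an untreated 0 h sample and a 12 h sample. No untreated array of 2 h or 6 h was used here, so treatment and elapsed time cannot be told apart. With 1 array at each time there is no replicate error, no test and no p-value, and every difference below is between 2 arrays.

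The value of a gene at this step is the log2 ratio of the 6 h over the 2 h array, as the median over the probe sets (groups of short probes to 1 transcript) that carry exactly 1 gene symbol. It was available for 19775 genes, the same genes as in the whole series. The deposited values are centred: each probe set has a median of 0 over the 4 arrays. A centred log2 value therefore says how an array stands against the other arrays for that gene and holds no expression level. For this reason the labelled cell type could not be checked by the level of its markers, and levels cannot be set against each other between genes. Between 2 h and 6 h the hepatocyte products AFP, TF and APOA1 differed little, with log2 ratios of 0.02, -0.00 and -0.05, while TTR was at 0.35 and ALB at 0.37. The probe sets of ALB spread from -0.13 to 0.79 and those of TF from -0.69 to 0.18.

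As background, several regulatory systems of hepatocytes act through changes of transcription over hours. When amino acids run short or unfolded protein builds up, the kinases of the integrated stress response raise translation of the transcription factor ATF4, which induces amino acid transporters and biosynthetic enzymes, while XBP1 and ATF6 induce chaperones of the endoplasmic reticulum. Heat-shock factor HSF1 induces cytosolic chaperones, BMP signals through SMAD proteins induce the ID genes and the iron hormone hepcidin, and cells that approach division express mitotic genes together. TNF family receptors, those of APRIL among them, signal through TRAF adaptors to NF-kB and MAP kinases.

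At this step 23 genes were at or past 2-fold higher (0.116% of the 19775) and 65 at or past 2-fold lower (0.329%). At or past 1.5-fold the counts were 311 higher (1.57%) and 410 lower (2.07%). With the arrays centred on the spike-in controls instead, 15 genes were at or past 2-fold higher and 84 lower, so that higher genes were 15.2% of those past 2-fold in place of 26.1%. The median of all genes was 0.04, and the SD over genes was 0.26, with a robust SD of 0.22. Of the 19775 genes 11208 (56.7%) were above 0, the share beside which counts of list members above or below 0 stand. The largest single changes upward were CYP7A1, IFIT1 and RAD54B, at 4.10-fold, 3.91-fold and 3.78-fold, and the largest downward was SLC7A11, at 3.73-fold. Of the 65 lower genes 55 had their lowest value of all 4 arrays at 6 h, and of the 23 higher genes 18 had their highest there. Most of these genes thus stood apart at 6 h, and the 12 h array lay between the 2 h and the 6 h array for 47 of the 65 and 16 of the 23. A gene chosen for a large 6 h over 2 h difference tends to be extreme at 6 h by that choice, so these counts are a description.

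The 6 h array also read differently from the 2 h array along some transcripts. The control probe sets for the beta-actin mRNA were at -0.87 for its 5' end, -0.67 for its middle and -0.25 for its 3' end. For GAPDH they were at -0.16, -0.11 and -0.08, and the 3 control probe sets for 18S ribosomal RNA were at -0.52, -1.02 and -0.56. The 5' end and middle of beta-actin were lowest at 6 h. Those for GAPDH and 18S were lower still at 12 h. The middle 18S probe set had centred log2 values of 1.33, 0.51, -0.51 and -0.58 at 0, 2, 6 and 12 h. Loss of signal toward the 5' end is a usual sign of shorter RNA or shorter copies of it. Probe sets without a gene name, which can read introns, antisense RNA or transcripts of unknown kind, were at or past 2-fold lower for 391 of 11721 (3.34%), against 420 of 41091 (1.02%) of those with 1 symbol, although the median of the unnamed ones was -0.00. By gene class, 2-fold lower values were found for 17 of 2656 lncRNAs (0.64%) and for 43 of 16520 genes that code for protein (0.26%). The human control transcripts M27830 and HUMISGF3A were mixed. Their 3' probe sets were higher, at 0.42 and 0.26, and their others were lower, from -0.59 to -0.03. The beta-actin, GAPDH and 18S control values and the larger share of lower unnamed probe sets and lncRNAs move in the same direction as the lower genes described below. Probe sets for the bacterial control transcripts dap, lys, phe and thr went the other way, with 23 of 24 above 0 and a range from -0.12 to 0.74. The part of these values in the results below was not tested.

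**Figure D1:**
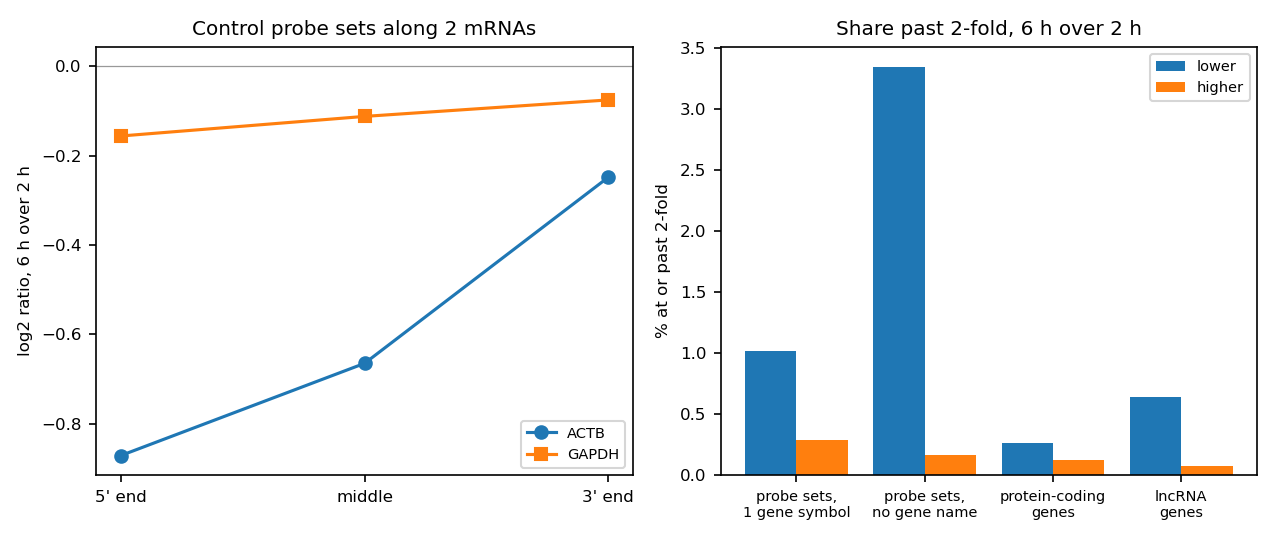
Left, log2 ratio of the 6 h over the 2 h array for the control probe sets at the 5' end, middle and 3' end of the ACTB and GAPDH mRNAs, with 1 value each. Right, percent of probe sets or genes at or past 2-fold lower or higher. ACTB runs from -0.87 at the 5' end to -0.25 at the 3' end, and probe sets without a gene name have the highest share of lower values, 3.34%.

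Several genes of amino acid supply and of the ATF4 pathway were among the lower genes. SLC7A11, the cystine subunit of the cystine and glutamate exchanger, was the lowest gene of the step with a log2 ratio of -1.90. On the arrays of 0, 2, 6 and 12 h, in this order here and below, its centred log2 values were -0.23, 0.23, -1.70 and 0.30. The 6 h array was thus low against all the others, and all 3 probe sets showed it, from -2.16 to -1.77. CTH, the enzyme that makes cysteine from cystathionine, followed the same course, with centred log2 values of -0.24, 0.28, -1.34 and 0.25 and a log2 ratio of -1.63 for the step (-1.76 and -1.49 in its 2 probe sets). TRIB3, a pseudokinase that feeds back on ATF4, was at -0.24, 0.24, -0.81 and 0.68, a ratio of -1.06. VLDLR, a lipoprotein receptor and known ATF4 target, had a ratio of -1.01 on 1 probe set, with the 6 h array again lowest at -0.80.

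Of 19 ATF4 and CHOP pathway genes, 13 were below 0 and 6 above, with a median of -0.16 against 0.04 for all genes. Other lists had medians as low or lower, such as glycolysis and glucose transport (-0.20) and ribosome biogenesis (-0.22). At or past 2-fold, 3 were lower (CTH, TRIB3 and VLDLR) and none higher, and at or past 1.5-fold 5 were lower and 1 higher. That last gene was DDIT4, an inhibitor of mTORC1, at 0.74. ATF3 and CHAC1, which are also induced through this pathway, were at 0.12 and 0.03, so not all members were lower. The 6 h array was the lowest of the 4 for 9 of the 19 (47.4%), where this held for 18.9% of all genes. The share was not particular to this list. It was 47.4% for BMP, TGF-beta and ID genes, 43.8% for circadian genes and 42.1% for WNT targets. In the comparisons that share an array with this step, the median of the list was 0.21 (2 h against 0 h) and 0.76 (12 h against 6 h).

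The amino acid transporters were lower more broadly. Their median was -0.37 over 18 genes, the lowest of the 42 lists fixed for this work, with 14 below 0 and 4 above. SLC1A5, a glutamine transporter, had centred log2 values of -0.32, 0.32, -0.47 and 0.60, a ratio of -0.79. SLC3A2, the heavy chain that carries SLC7A11 and SLC7A5 to the membrane, was at -0.67. SLC38A1, another glutamine carrier, was at -0.64, with its 4 probe sets between -1.20 and -0.15. Its paralogue SLC38A2 went the other way, at 0.57. The 6 h array was lowest for 12 of the 18. SLC7A11 also belongs to the NRF2 antioxidant list, whose median was -0.10 over 15 genes with 9 below 0. OSGIN1, an oxidative stress growth inhibitor, was at -0.86, SRXN1, which repairs oxidised peroxiredoxins, at -0.69, and GCLC, the catalytic subunit of the first step of glutathione synthesis, at -0.65.

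One promoter of the ATF4 list is shown because ASNS, asparagine synthetase, carries a well-known C/EBP-ATF response element and had a ratio of -0.64, the median of probe sets at -1.31 and 0.03. The 120 bases before its start, on the minus strand of chromosome 7 (chr7:97872409-97872528 of GRCh38.p14, from RefSeq), are given 5′ to 3′ with the matched letters in capitals.
ASNS: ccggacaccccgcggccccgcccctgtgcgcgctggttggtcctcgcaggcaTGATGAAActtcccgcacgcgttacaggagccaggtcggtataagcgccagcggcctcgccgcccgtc
The motif searched was TGATGNAA on both strands, in the 250 bases before the start. It was found for 3 of the 17 list members with a promoter sequence, ATF3, CHAC1 and ASNS, and for none of 15 amino acid transporters. Over all 27305 promoters 3.19% held it. Of the 3 members that hold it ASNS alone was past 1.5-fold. The median log2 ratio of the ATF4 list was 0.03 for the members that hold it and -0.25 for those that do not. A match is only a description of these letters.

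A few genes of the secretory pathway were among the lowest of the step, while the list of chaperones of the endoplasmic reticulum and XBP1 and ATF6 targets was not lower as a whole. FICD, which adds and removes AMP on the chaperone BiP, had centred log2 values of 0.23, 0.82, -0.64 and -0.23, a ratio of -1.46. BHLHA15, a transcription factor of secretory cells, was at -0.20, 0.20, -1.22 and 0.52, a ratio of -1.41. Both rest on 1 probe set and neither belongs to that list. Within the list, DNAJB9, a co-chaperone of BiP induced through XBP1, was at -0.99 with 3 probe sets between -1.04 and -0.89, and its 6 h value of -0.81 was the lowest of its 4 arrays. SDF2L1 was at -0.55, from 0.54 at 2 h to -0.00 at 6 h. Over its 19 genes the median was 0.01, with 11 above 0 and 8 below, and DNAJB9 was the only one past 1.5-fold, with none past 2-fold. HSP90B1 was at 0.41 and HSPA5, which encodes BiP, at 0.14.

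**Figure D2:**
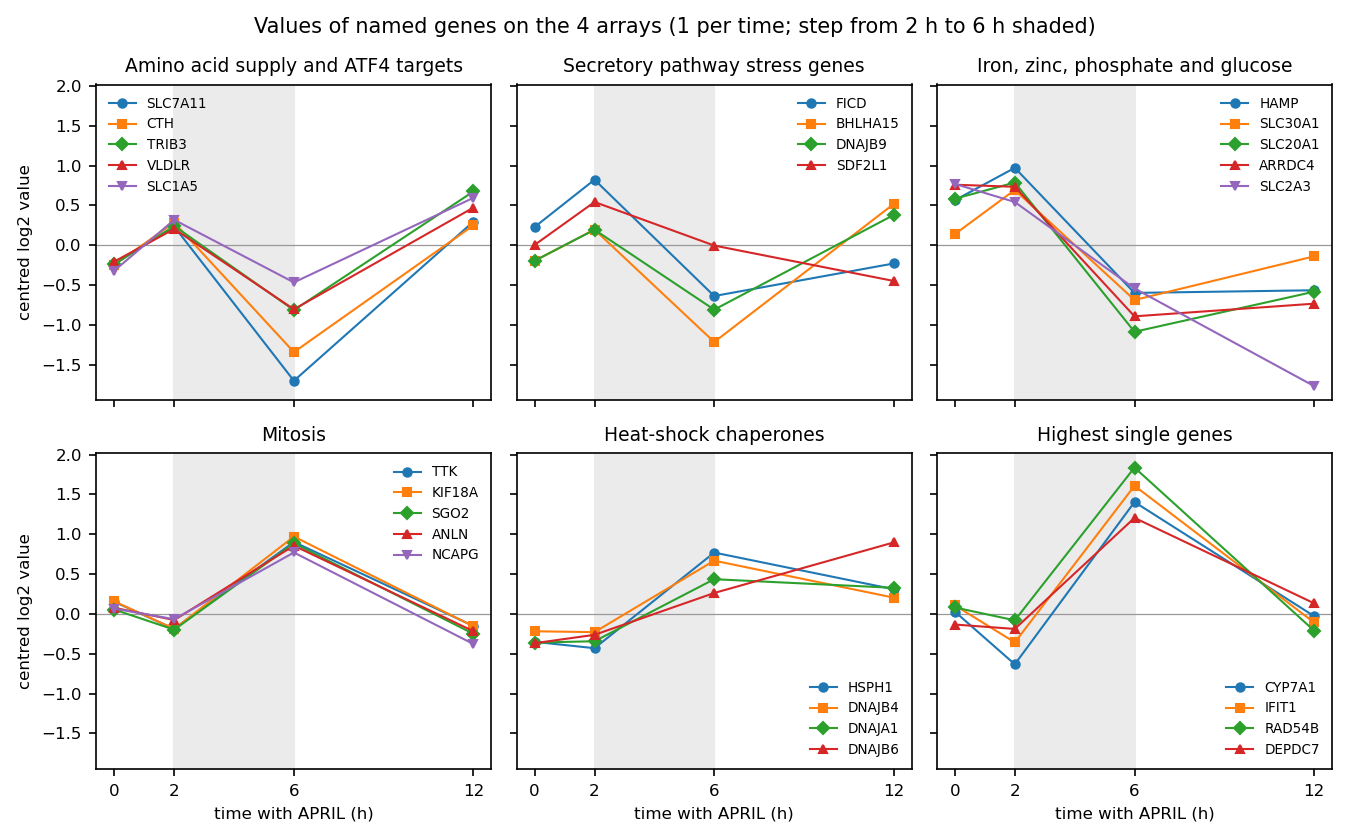
Centred log2 values of named genes on the 4 arrays, 1 at each of 0, 2, 6 and 12 h, with the step from 2 h to 6 h shaded. Each line is the median over a gene's probe sets. SLC7A11 and CTH are lowest at 6 h (-1.70 and -1.34), the mitotic genes and CYP7A1, IFIT1 and RAD54B are highest there, and the heat-shock gene DNAJB6 is highest at 12 h.

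HAMP encodes hepcidin, the liver hormone that closes the iron exporter ferroportin and is induced by BMP and SMAD signals. Its centred log2 values were 0.57, 0.97, -0.60 and -0.57, a ratio of -1.57 for the step on 1 probe set. Its 2 early arrays were both high and its 2 late arrays both low. The SMAD targets ID2 and ID1, inhibitors of helix-loop-helix factors, were at -0.70 and -0.67, ID3 at -0.35 and the ligand BMP4 at -0.45. Over 19 BMP and TGF-beta genes the median was -0.16, with 12 below 0 and 3 at or past 1.5-fold lower. In the acute-phase list, to which hepcidin also belongs, the median was 0.04 over 18 genes and no member other than HAMP passed 1.5-fold, with CRP at 0.29 and SERPINA3 at -0.22.

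Single transporters of metals and phosphate were lower, while zinc transporters as a list were not. SLC30A1, the zinc exporter of the plasma membrane and a target of the zinc sensor MTF1, had a ratio of -1.38, but its 3 probe sets were at -2.35, -1.38 and -0.10. Its centred log2 values of 0.14, 0.69, -0.69 and -0.14 were highest at 2 h and lowest at 6 h. The manganese exporter SLC30A10 was at -0.58, and these were the only members of the list of zinc transporters and MTF1 past 1.5-fold. Of its 15 genes 10 were above 0 (66.7%, beside 56.7% of all genes), with a median of 0.06. The zinc importers SLC39A10 and SLC39A1 were at 0.31 and 0.30. The metallothioneins, which buffer zinc and copper, lay a little lower at 6 h than at 2 h. Their median was -0.19 over 10 genes, with 8 below 0. MT1M went from 1.37 at 2 h to 0.67 at 6 h, a ratio of -0.70, and MT1E and MT1X were both at -0.51. Both arrays were above the 0 h value of each of these 3 genes, so the step is a partial decline from the 2 h array. Probe sets of MT1E and MT1X can match several metallothioneins and are not separate readings.

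SLC20A1, a sodium-phosphate cotransporter, had a ratio of -1.87, with probe sets at -3.06 and -0.69 that agree in direction and not in size. GPCPD1, a glycerophosphocholine phosphodiesterase, likewise spread from -2.75 to -0.92 over 3 probe sets. ACSL4, an acyl-CoA synthetase for arachidonic acid, was at -1.56 by its median, yet 1 of its 3 probe sets was at 0.54. Such spread was present at both ends of the list of lower genes. Of the 65 lower genes 42 rest on 1 probe set, and of the 23 with several, 20 had all of them on 1 side of 0. For the 23 higher genes 18 rest on 1 probe set and the other 5 had all on 1 side.

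**Figure D3:**
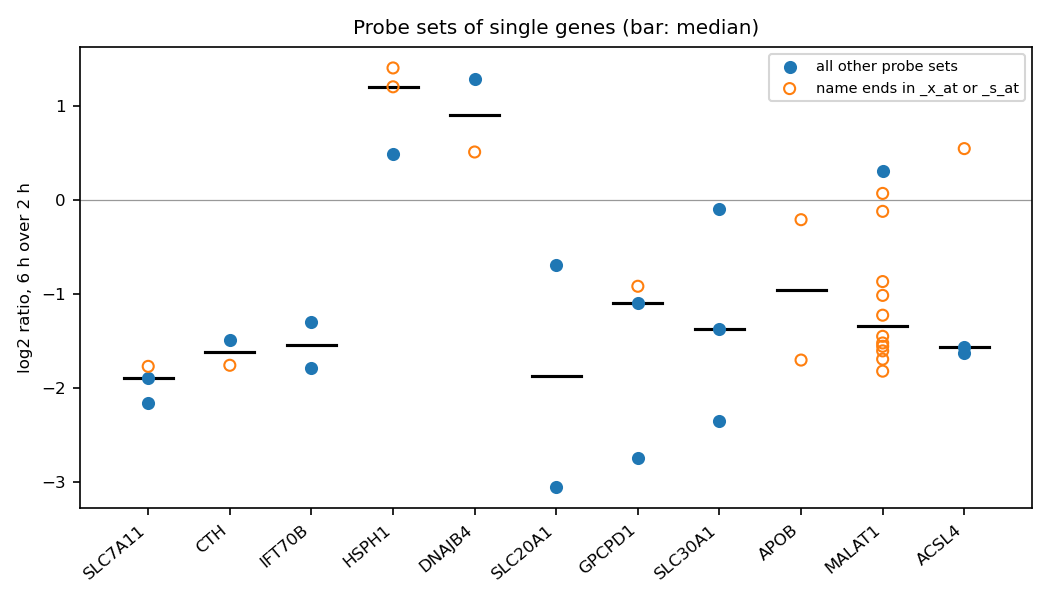
Log2 ratio of the 6 h over the 2 h array for every probe set of 11 genes, with the median as a bar. Open symbols mark suffixes _x_at and _s_at, given to probe sets that may read more than 1 transcript. The 3 probe sets of SLC7A11 lie between -2.16 and -1.77, whereas those of MALAT1 run from -1.83 to 0.30.

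Glucose-regulated genes were lower as well. ARRDC4, an arrestin-domain protein that responds to glucose through the factors MondoA and ChREBP, had centred log2 values of 0.76, 0.73, -0.89 and -0.73, a ratio of -1.63. As with HAMP, the early pair of arrays was high and the late pair low. TXNIP, which responds to the same factors and lowers glucose uptake, was at -0.61, with 3 probe sets between -0.82 and -0.44, and ARRDC3 was at -0.55. Over 11 genes of this kind 9 were below 0, with a median of -0.25. Of the 23 genes of glycolysis and glucose transport 19 were below 0, with a median of -0.20 and 4 at or past 1.5-fold lower. SLC2A3, a high-affinity glucose transporter, was at 0.77, 0.54, -0.54 and -1.77, a ratio of -1.09, and so continued downward to 12 h. Hexokinase HK2 was at -0.86, PFKM, the muscle form of phosphofructokinase, at -0.64, and PDK1, which blocks entry of pyruvate into mitochondria, at -0.59.

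Hypoxia-inducible genes outside glycolysis had a median of -0.09 over 20 genes, with 15 below 0 and 4 at or past 1.5-fold lower. LOX, lysyl oxidase, was at -1.17 with 3 probe sets between -1.47 and -0.45. EGLN3, an oxygen-sensing prolyl hydroxylase, was at -0.82, BHLHE40, a repressor that also acts in the circadian clock, at -0.73, and BNIP3L, a mitophagy receptor, at -0.66. In the circadian list 14 of 16 genes were below 0, with a median of -0.14 and PER2 at -0.46 (probe sets at -0.86 and -0.06).

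Among liver regulators CEBPA, a transcription factor of hepatocyte differentiation, had centred log2 values of 0.33, 0.68, -0.39 and -0.33 and a ratio of -1.06. PROX1 was at -0.74 with 4 probe sets from -1.26 to -0.18, and FOXA1 at -0.56 with probe sets at -1.09 and -0.03. The list of lineage factors had a median of -0.02 over 17 genes, with 11 below 0. The highest gene of the step was CYP7A1, whose enzyme limits the rate at which bile acids are made from cholesterol. Its centred log2 values were 0.03, -0.63, 1.40 and -0.03, a ratio of 2.04 on 1 probe set. The ratio thus holds both a low 2 h value and a high 6 h value. Over the 18 bile acid genes the median was -0.04, and the bile acid exporter subunits SLC51B and SLC51A were at -0.77 and -0.56. APOB, on which LDL particles are built, was at -0.96, but its 2 probe sets were at -1.71 and -0.21, while MTTP, which loads lipid onto it, was at 0.36. PCK1, the enzyme that starts gluconeogenesis, was at 1.12 on 1 probe set, with the 6 h array highest at 0.70.

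Several nuclear and noncoding transcripts were among the lower genes, though lncRNAs as a class were not lower. The median over 2656 lncRNAs was 0.05, beside 0.03 for genes that code for protein, and 0.64% were at or past 2-fold lower. MALAT1, an abundant nuclear lncRNA, had a ratio of -1.34, with 10 of its 12 probe sets below 0 and values from -1.83 to 0.30. The probe set of MALAT1 that is not marked as matching several transcripts was the one at 0.30, so the direction turns when the others are left out. The antisense and intergenic transcripts ST7-AS1, DLGAP1-AS6, C1QTNF1-AS1 and PURPL were at -1.79, -1.70, -1.59 and -1.51, each on 1 probe set. RNA45SN5, the precursor of ribosomal RNA, had centred log2 values of 0.95, 0.53, -0.57 and -0.53 and a ratio of -1.09. Of 17 nuclear and imprinted lncRNAs 5 were at or past 1.5-fold lower and none higher, with FTX at -0.70 and PRKCQ-AS1 at -0.66, yet the median was -0.04. Host genes of small nucleolar RNAs had a median of 0.00 over 9 genes.

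Histone, splicing and ribosome biogenesis genes leaned the same way. Replication-dependent histones had a median of -0.21, with 22 of 27 below 0 and 4 at or past 1.5-fold lower. H2BC4 was at -1.56, from 0.46 at 2 h to -1.10 at 6 h, and the linker histone H1-4 was at -1.0, with centred log2 values of 1.25, 0.50, -0.50 and -0.58. Most histone mRNAs lack a poly(A) tail, and their sequences are alike, so probe sets can share signal. Of 25 splicing kinases and SR proteins 16 were below 0, with SRSF6 at -0.99 and SRSF5 at -0.92, the latter with 1 of its 3 probe sets at 0.73. The other 9 were above 0, and of these RSRP1 alone was past 1.5-fold, at 0.95, with both probe sets above 0 (0.75 and 1.16). For 21 ribosome biogenesis genes the median was -0.22, with 16 below 0, and the 6 h array was lowest for 15. UTP15 and UTP20, parts of the small-subunit processome, were at -0.79 and -0.72, and RRS1 was at -0.65. Ribosomal protein genes, in contrast, stayed between -0.04 and 0.15, with a median of 0.02 over 15. The beta-actin and 18S control probe sets were lower at 6 h than at 2 h, as given above, with 18S also low at 12 h. Their part in these lists was not tested.

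IFT70A and IFT70B encode near-identical subunits of the intraflagellar transport complex. IFT70B was at 0.84, 0.74, -0.81 and -0.76, a ratio of -1.55 with probe sets at -1.79 and -1.30, and IFT70A was at -1.07. Because the genes are so similar they may be 1 reading. With both included, the 19 intraflagellar transport genes had a median of 0.00, and the other 17 were short of 1.5-fold.

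On the higher side, mitotic genes stood out. Of 30 G2/M genes 26 were above 0, with a median of 0.33, the highest of the lists fixed for this work. At or past 1.5-fold 8 were higher and none lower. TTK, a kinase of the spindle checkpoint, had centred log2 values of 0.15, -0.19, 0.90 and -0.15 and a ratio of 1.09. DLGAP5, a spindle protein, was at 0.80, the kinase AURKA at 0.76 with 3 probe sets between 0.41 and 0.78, and the kinetochore motor CENPE at 0.68. Outside the list KIF18A, a kinesin that aligns chromosomes, was at 1.16, SGO2, which protects centromeric cohesion, at 1.08 with probe sets at 0.95 and 1.22, ANLN, a scaffold of the cleavage furrow, at 0.93, and the condensin subunit NCAPG at 0.84. The 6 h array was the highest of the 4 for 23 of the 30, where this held for 31.9% of all genes. In a bulk sample a larger share of cells near mitosis and more of these mRNAs per cell cannot be told apart.

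The G1/S and replication genes had a median of 0.10 over 24 genes and 16 above 0 (66.7%), ORC1 at 0.61 and GINS1 at 0.58. Homologous recombination genes had a median of 0.28 over 18, with 12 above 0 (also 66.7%, beside 56.7% of all genes). RAD54B, a motor protein of recombination, was the only member past 1.5-fold, at 0.08, -0.08, 1.84 and -0.21 on the 4 arrays, a ratio of 1.92 on 1 probe set. RAD51AP1 was at 0.56 and XRCC3 at 0.48.

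Promoters of 2 mitotic genes are shown because they hold the letters TTTGAA. These are the letters of the CHR, an element through which many mitotic genes are repressed until G2. A match is only a description of letters, and whether these sites act was not tested. The sequences are the 120 bases before the start, both on the minus strand of GRCh38.p14 (RefSeq), at chr14:55191586-55191705 for DLGAP5 and chr15:90994536-90994655 for PRC1, 5′ to 3′, with the matched letters on either strand in capitals.
DLGAP5: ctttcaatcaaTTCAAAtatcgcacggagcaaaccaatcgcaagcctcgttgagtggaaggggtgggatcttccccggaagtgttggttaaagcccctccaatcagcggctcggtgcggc
PRC1: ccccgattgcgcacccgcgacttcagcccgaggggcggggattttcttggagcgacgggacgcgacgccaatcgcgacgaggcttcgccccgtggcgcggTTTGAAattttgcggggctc
In the 250 bases before the start, 13 of the 26 list members with a promoter sequence held the motif, as did 13.6% of all 27305 promoters. The median log2 ratio was 0.27 for the members that hold it and 0.31 for those that do not, so the letters did not separate the members by size of change. PRC1, which bundles microtubules at cytokinesis, was at 0.60.

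Cytosolic chaperones were higher at 6 h too. Of 22 heat-shock genes 18 were above 0, with a median of 0.22, 3 at or past 1.5-fold higher and none lower. HSPH1, a nucleotide exchange factor for HSP70, had centred log2 values of -0.35, -0.43, 0.77 and 0.31 and a ratio of 1.20. Its 3 probe sets were at 1.40, 1.20 and 0.48, and the last is the one not marked as matching several transcripts. The HSP70 co-chaperones DNAJB4 and DNAJA1 were at 0.90 and 0.78, the former with probe sets at 1.29 and 0.51, the latter at 0.82 and 0.74. DNAJB6 was at 0.53 and CHORDC1, a co-chaperone of HSP90, at 0.52, but its probe sets were at 1.27 and -0.23. For HSPH1, DNAJB4 and DNAJA1 the 2 early arrays were low and the 2 late arrays high.

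Heat-shock elements, to which HSF1 binds as a trimer, were searched on both strands as GAA, TTC and GAA with any 2 bases between each. They were found before the start of 3 of 19 list members (DNAJB6, CHORDC1 and SERPINH1) and of 0.439% of all 27305 promoters. Windows of 120 bases of 2 of them are shown, since both genes had ratios above 0.5, 5′ to 3′ with matched letters in capitals (GRCh38.p14, RefSeq). That of CHORDC1 is chr11:90223050-90223169 on the minus strand and ends at the start, and that of DNAJB6 is chr7:157336820-157336939 on the plus strand.
CHORDC1: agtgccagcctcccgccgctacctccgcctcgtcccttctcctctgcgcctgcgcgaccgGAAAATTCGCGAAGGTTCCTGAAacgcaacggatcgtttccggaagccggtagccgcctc
DNAJB6: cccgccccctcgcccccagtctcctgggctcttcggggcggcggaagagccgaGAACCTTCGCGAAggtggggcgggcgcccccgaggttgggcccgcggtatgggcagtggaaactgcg
CHORDC1 holds 3 overlapping matches and DNAJB6 a single one. SERPINH1, a collagen chaperone of the endoplasmic reticulum, was at 0.12. The median log2 ratio was 0.52 for the 3 members that hold the motif and 0.22 for those that do not. HSPH1, DNAJB4 and DNAJA1 were not among the 3. The 2 genes shown were picked by their ratios, so the display is a description.

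IFIT1, an antiviral protein induced by interferon, was the second highest gene. Its centred log2 values were 0.11, -0.36, 1.61 and -0.11, a ratio of 1.97 on 1 probe set, so that the 6 h array alone was high. No other interferon-stimulated gene of the list passed 1.5-fold. Over 24 genes the median was 0.03, with 13 above 0, and after IFIT1 came IFI27 at 0.39, IRF7 at 0.38 and IFIT3 at 0.37. The core of the interferon-stimulated response element, searched on both strands as GAAA and GAAA with any 2 bases between them, was present for 12 of 19 members with a promoter sequence and 3.07% of all promoters. The promoter of IFIT1 (chr10:89392503-89392622, plus strand) is shown beside that of ISG15 (chr1:1013377-1013496, plus strand), a classical interferon target that was at 0.03. Both are the 120 bases before the start in GRCh38.p14 (RefSeq), 5′ to 3′, with matched letters in capitals.
IFIT1: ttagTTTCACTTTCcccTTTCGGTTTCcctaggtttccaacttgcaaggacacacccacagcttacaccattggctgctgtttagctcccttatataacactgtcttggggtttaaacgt
ISG15: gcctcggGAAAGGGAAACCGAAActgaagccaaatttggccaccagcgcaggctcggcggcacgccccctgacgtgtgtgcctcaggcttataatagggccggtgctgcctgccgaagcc
Each holds 2 matches, although the log2 ratios of the genes were 1.97 and 0.03. Over the list the median was -0.03 for the members that hold the motif and 0.10 for those that do not.

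Other higher genes had varied functions. DEPDC7 was at 1.39, and the zinc-finger genes ZNF670 and ZNF431 were at 1.27 and 1.21, the latter with 3 probe sets from 0.13 to 1.26. SNX16, a sorting nexin of endosomes, was at 1.08 with probe sets at 0.81 and 1.34. SOCS5, a suppressor of cytokine signalling, was at 1.03 with 3 probe sets between 0.82 and 1.19. DUSP10, a phosphatase of JNK and p38, was at 0.94 with probe sets at 0.88 and 0.99. For SNX16, SOCS5 and DUSP10 every probe set was thus at or past 1.5-fold higher. Over all genes with 2 or more probe sets, 19 had every one at or past 1.5-fold higher and 56 had every one at or past 1.5-fold lower.

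**Figure D4:**
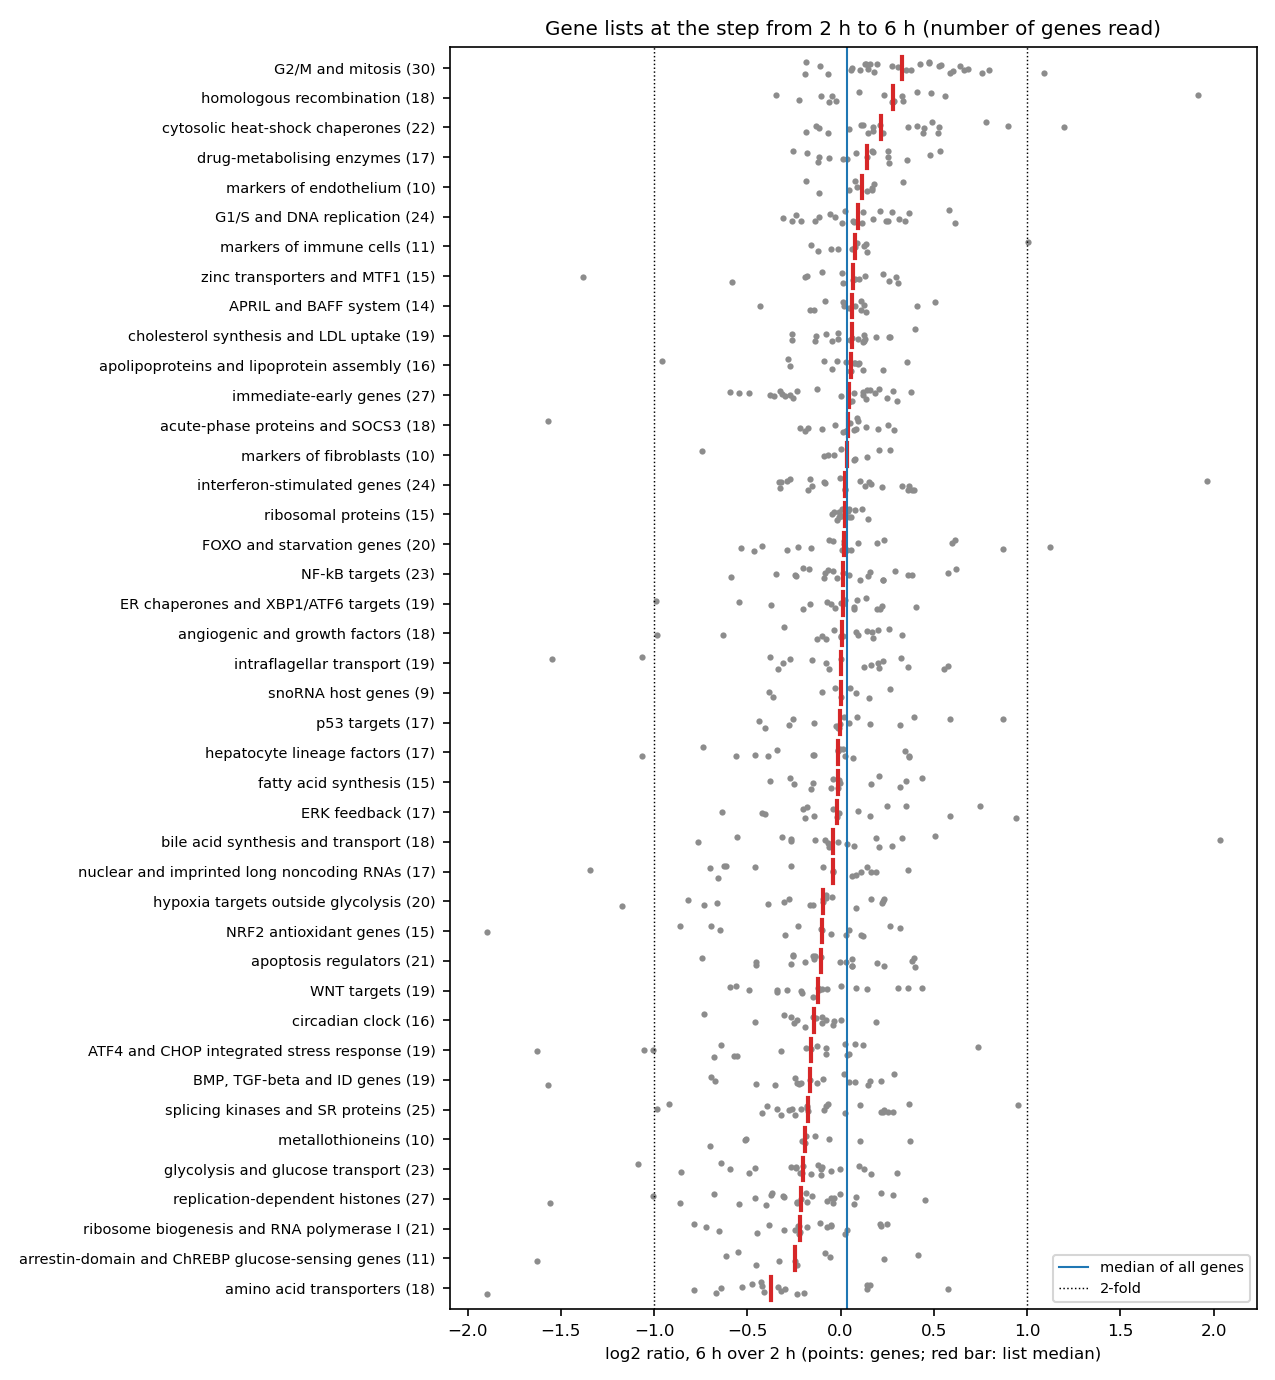
Log2 ratio of the 6 h over the 2 h array for each gene of the 42 lists, ordered by the list median (red bar). The number of genes read stands after each name, the blue line is the median of all genes (0.04) and dotted lines mark 2-fold. Amino acid transporters have the lowest median (-0.37) and G2/M genes the highest (0.33), and several lists near 0 hold single genes far out, such as IFIT1 and CYP7A1.

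The lists closest to APRIL signalling had medians near that of all genes. The APRIL and BAFF system list, with ligands, receptors and TRAF adaptors, had a median of 0.06 over 14 genes and none at or past 1.5-fold. The receptor TNFRSF13C was at 0.50, the ligand TNFSF13B (BAFF) at 0.41, and GPC3, a heparan sulphate proteoglycan, at -0.43. The probe sets of GPC3 were at -0.87 and 0.00. Of 23 NF-kB targets 12 were above and 11 below 0, and the median was 0.02. The chemokine CCL2 was at 0.62, CXCL8 (interleukin 8) at 0.58, and RELB, a subunit of NF-kB, at -0.59. Immediate-early genes had a median of 0.05 over 27, with MYC at -0.60, the kinase SGK1 at -0.55 and CCN2 at -0.49. In the ERK feedback list the median was -0.02 over 17 genes, with DUSP10 as above, the ephrin receptor EPHA2 at 0.74, the ERK-induced factor ETV4 at -0.64 and the ERK phosphatase DUSP6 at 0.59. Of the 3 probe sets of DUSP6 1 was at -0.04. The 6 h array was the lowest for 40.7% of the immediate-early and 41.2% of the ERK feedback genes, against 18.9% of all genes. For NF-kB targets this share was 30.4%, and for the APRIL and BAFF system list it was 0%.

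Of the remaining lists, WNT targets had a median of -0.12 over 19 genes, with 13 below 0, NKD1 at -0.56 and DKK1 at -0.49. FOXO and starvation genes were at 0.02 over 20, with 4 at or past 1.5-fold higher, among them SESN1 at 0.87 and CCNG2 at 0.61 besides PCK1. Angiogenic and growth factors were at 0.01 over 18, with IGFBP3 at -0.98 and PDGFA at -0.63. Apoptosis regulators were at -0.11 over 21, with the survival gene BCL2L1 at -0.74. Cholesterol synthesis genes were at 0.06 over 19, fatty acid synthesis genes at -0.02 over 15, apolipoprotein genes at 0.05 over 16, drug-metabolising enzymes at 0.14 over 17 and p53 targets at -0.00 over 17. In these 5 lists SESN1, also a p53 target, and APOB were the only genes past 1.5-fold. Markers of other cell types were read as lists too, and their medians were 0.08 (immune), 0.04 (fibroblast) and 0.12 (endothelial). Past 1.5-fold these lists held LY86 at 1.0 and PDGFRB at -0.74. Without levels it could not be told which of these markers were expressed.

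The only pair of arrays that shares none with this step is 12 h over 0 h, which encloses it in time. In that pair 881 genes (4.46%) were at or past 1.5-fold higher and 731 (3.7%) lower. Both comparisons were past 1.5-fold upward for 67 genes, which is 21.5% of the genes higher at this step and 7.6% of those higher at 12 h over 0 h. Downward they shared 115 genes, 28% and 15.7% of each list. Past 1.5-fold in opposite directions were 17 genes higher at this step and lower at 12 h over 0 h, and 30 the other way round. Across all 19775 genes Pearson's r was 0.15 and Spearman's rho 0.11. Genes are not independent replicates, and the 4 arrays were normalised together.

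Several genes shared downward were high on both early arrays and low on both late ones. Shared genes were chosen for a change the same way in both pairs, so this course follows in part from the choice and is a description. IFT70B was at -1.55 at this step and at -1.61 from 0 h to 12 h, ARRDC4 at -1.63 and -1.49, MIXL1, a homeobox gene, at -1.47 and -1.47, and LOX at -1.17 and -2.01. HAMP was at -1.57 and -1.13. Upward, ZNF670 was at 1.27 and 1.62, ZNF431 at 1.21 and 1.37, RSRP1 at 0.95 and 0.96 and DUSP10 at 0.94 and 1.47. Other genes stood apart at 6 h and had ratios nearer 0 between the ends of the course. CYP7A1 was at 2.04 and -0.05, IFIT1 at 1.97 and -0.21, RAD54B at 1.92 and -0.29, TTK at 1.09 and -0.30, and CYP24A1, which inactivates vitamin D, at -1.50 and -0.03. The amino acid genes had opposite signs, with SLC7A11 at -1.90 and 0.53, CTH at -1.63 and 0.49 and TRIB3 at -1.06 and 0.92.

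**Figure D5:**
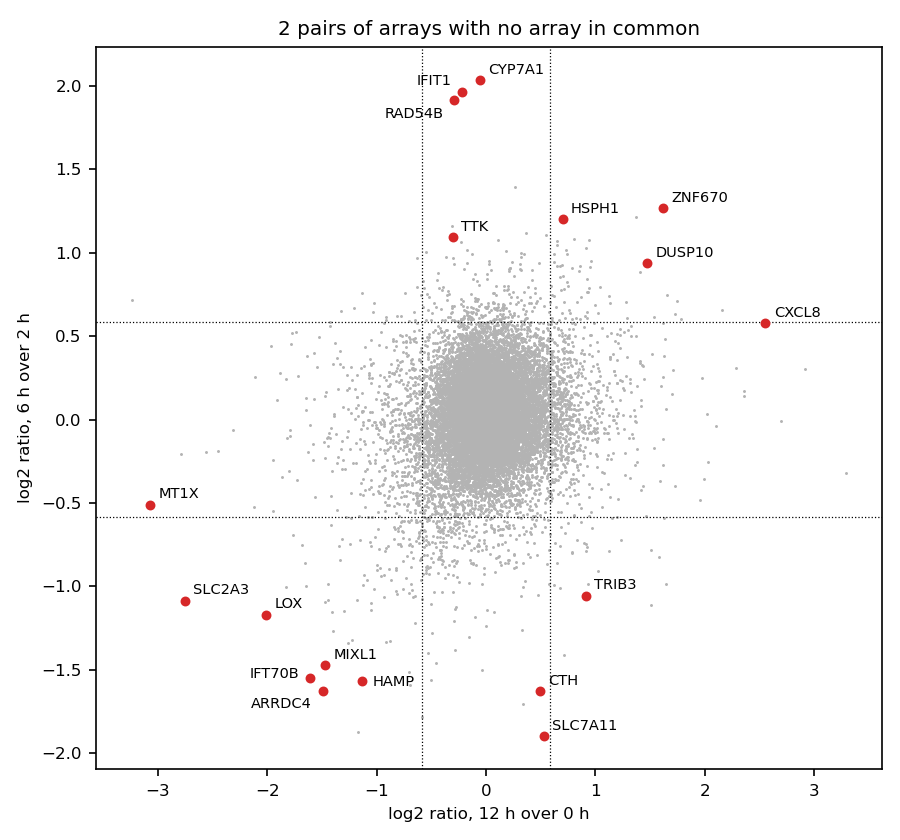
Each point is 1 of 19775 genes, with the log2 ratio of 12 h over 0 h on the x axis and of 6 h over 2 h on the y axis, 2 pairs with no array in common. Dotted lines mark 1.5-fold and named genes are red. IFT70B, ARRDC4 and LOX are low in both, ZNF670 and DUSP10 high in both, and CYP7A1, IFIT1 and RAD54B lie far from 0 on the y axis and between -0.29 and -0.05 on the x axis.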

How the data were processed

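Total RNA of 4 HepG2 samples, 1 per time, was hybridised to U133 Plus 2.0 arrays. The submitters' processing notes name RMA, with no version, as the source of the deposited log2 values. Each probe set's 4 deposited values have a median of 0 within 5.0e-07. Base 2, and a higher value meaning more transcript, were assumed as usual for RMA, and the sources used here do not state the base, the direction or the centring step. Of 54675 probe sets, 41091 had 1 symbol in the platform annotation (updated by gene identifier to RefSeq GRCh38.p14) and were used, and 10523 of the 19775 genes had 2 or more. A gene's centred value on an array is also a median over probe sets, so differences of these can depart slightly from its ratio. Differences and medians were computed with Python 3.11.15 and pandas 2.3.3, tested on simulated data. The genes and 42 lists (874 entries, 763 read) were chosen with earlier results of these data known. Named genes were the 15 highest and 15 lowest with probe sets of 1 sign, the 10 highest and 10 lowest by the probe set nearest 0, the 4 largest of each list, and the 8 largest each way shared with 12 h over 0 h. Genes outside this rule were chosen after their values were seen: AFP, ALB, APOA1, TF, TTR, ATF3, CHAC1, ASNS, HSPA5, SLC38A2, RNA45SN5, ACSL4, PRC1, CHORDC1, ISG15, ID3 and SERPINH1. The number of arrays limits the precision.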

Additional observations from a re-analysis of the deposited data

How the results depend on the processing

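Medians of 40 of the 42 lists stayed within 0.22 (the robust SD of all genes) of the value given above under all 5 alternatives of centring, probe sets and summary. For lists with a median under 0.22 in size this does not show that the sign was kept, since a shift to 0 or past it also counts as within. The lists outside it came from taking each gene's probe set of widest range, which put hepatocyte lineage factors at -0.39 and splicing genes at -0.45. That choice picks extreme probe sets by construction and gave 105 genes higher and 353 lower past 2-fold, and 792 past 1.5-fold the same way in both pairs of arrays in place of 182. Centring on the 18 spike-in control probe sets (median 0.08 at this step) left 15 genes higher and 84 lower. At 1.5-fold the counts were 311 and 410, at 3-fold 3 and 7, and with 2 or more probe sets of 1 sign 5 and 20. At 2-fold in both pairs 23 genes were shared. Without probe sets ending in _x_at or _s_at MALAT1 reversed to 0.30 and HSPH1 was at 0.48. Of 49 named genes past 2-fold, 7 fell short of it under an alternative: besides MALAT1 and HSPH1 these were LY86 (0.98 and 0.93 under both centrings), SGO2 (0.95) and SLC2A3 (-0.79) by widest range, SOCS5 (0.96) with spike-in centring and ZNF431 (0.87) by the mean. For 7 of the 49 (and 46 of all 204 named genes) removing _x_at and _s_at probe sets left no value, so that alternative says nothing of them. No paired analysis was possible because each time has 1 array, and for the same reason no array could be left out. Without levels, signal over background was not used here and limits on dim probe sets are unknown.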

Other observations

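The cytosolic aminoacyl-tRNA synthetases, which load tRNAs with amino acids and several of which are known ATF4 targets, were put together as a list after the values were seen. Of 17 genes read, 14 were below 0 with a median log2 ratio of -0.32 for 6 h over 2 h, beside 0.04 for all genes, and 3 were at or past 1.5-fold lower. GARS1, the glycine enzyme, was at -1.0, with centred log2 values of -0.17, 0.26, -0.74 and 0.17 at 0, 2, 6 and 12 h. AARS1, for alanine, was at -0.74, SARS1, for serine, at -0.59 with probe sets at -0.70 and -0.49, and CARS1, for cysteine, at -0.58. For 12 of the 17 the 6 h array was the lowest of the 4.

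Condensin, kinetochore and cytokinesis genes outside the G2/M list were likewise put together afterwards. Of 27 genes 24 were above 0, with a median of 0.49, and 9 were at or past 1.5-fold higher. KIF18A was at 1.16, SGO2 at 1.08, CENPQ, a kinetochore protein, at 0.97 and ANLN at 0.93, and for 22 of the 27 the 6 h array was the highest.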
